A study of Mus musculus with 6 samples.

Results

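The 10 genes described here encode ADAMTS proteases that cut proteoglycans, procollagens or cartilage oligomeric matrix protein (COMP), and they were taken by gene symbol from a table of 53342 mouse genes. They are Adamts1, Adamts4, Adamts5, Adamts8, Adamts9 and Adamts15, which cleave large proteoglycans, Adamts2, Adamts3 and Adamts14, the procollagen N-proteinases, and Adamts12, which cleaves COMP. RNA was sequenced from dental pulp of 3-month-old C57BL/6 mice in 3 WT samples, numbered 2, 4 and 5, and 3 samples from mice without functional MMP13 (Mmp13-/-), numbered 1, 2 and 6, and the question was how loss of this collagenase altered expression in the pulp. The deletion was homozygous and present in every tissue, the mice were male, and no other allele or agent was given for either genotype. The tooth type is unsettled, because the growth notes of both genotypes name molars, the methods name incisors, and in the sample titles molars are named for the WT samples and no tooth for Mmp13-/-, so a difference in tooth type cannot be told apart from genotype.

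ADAMTS proteases are secreted zinc enzymes that are made as inactive precursors, are usually trimmed by furin-like convertases, and then act on the matrix around the cell. The proteoglycan-cleaving members cut aggrecan, versican and related hyaluronan-binding proteoglycans, the N-proteinases remove the amino-terminal propeptide of fibrillar procollagens before fibrils assemble, and TIMP3 is their main tissue inhibitor. Dental pulp is a loose connective tissue rich in proteoglycans and collagen, and its odontoblasts secrete the collagen matrix of dentin.

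All 10 genes share the zinc-binding site of the metalloprotease domain, in which 3 histidines hold the catalytic zinc. The coding sequence of this site is shown for each member because it encodes these histidines, and the capitals mark the codons of the 3 histidines. The sequences are 33 bases long, run 5′ to 3′ on the coding strand and come from the GENCODE M21 transcripts of GRCm38.
Adamts1: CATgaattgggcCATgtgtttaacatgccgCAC
Adamts4: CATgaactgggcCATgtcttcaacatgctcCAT
Adamts5: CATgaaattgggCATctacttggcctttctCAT
Adamts8: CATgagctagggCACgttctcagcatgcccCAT
Adamts9: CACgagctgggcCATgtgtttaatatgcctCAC
Adamts15: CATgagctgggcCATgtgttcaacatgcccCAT
Adamts2: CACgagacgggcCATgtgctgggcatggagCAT
Adamts3: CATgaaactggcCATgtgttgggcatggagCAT
Adamts14: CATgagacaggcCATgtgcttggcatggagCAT
Adamts12: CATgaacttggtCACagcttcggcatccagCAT

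The site was identical in all 10 genes at 12 of 33 bases, and pairs of members differed at 3 to 16 bases, with a median of 11 over 45 pairs. Adamts2 and Adamts14 differed at 3 bases, as did Adamts4 and Adamts15. Codon 8 of the site encoded glycine in Adamts2, Adamts3, Adamts5, Adamts12 and Adamts14, asparagine in Adamts1, Adamts4, Adamts9 and Adamts15, and serine in Adamts8. A search that required glycine at this codon found 5 members, one that also accepted asparagine found 9, and the search was widened to serine after Adamts8 had been missed, so the match of all 10 was built into the search. An exon boundary ran through the site in every member, after base 10 in Adamts1, Adamts4, Adamts5, Adamts8 and Adamts15 and after base 17 in Adamts2, Adamts3, Adamts9, Adamts12 and Adamts14. The longest run of identical bases in the transcripts of any pair, untranslated parts included, was 45, which is shorter than the sequenced reads.

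Libraries held 28442936 to 29980236 estimated counts in WT and 21561420 to 26547121 in Mmp13-/-. Mmp13 itself (chr9:7272514-7283331 in GRCm38, the build of all positions here) checked the labels, with normalized counts of 1009, 1072 and 825.8 in WT samples against 8.846, 30.08 and 64.0 in Mmp13-/- samples. Mmp13-/- sample 6 stood apart from the others, because genes of odorant and vomeronasal receptors, which are normally expressed in sensory neurons, took 1170 CPM there, against 300 and 347 CPM in Mmp13-/- samples 1 and 2 and 17.7 to 20.5 CPM in WT. The genotypes also differed by base composition. Across 10563 expressed protein-coding genes the log2 fold change fell with the GC content of the transcript (Spearman correlation across genes, which are not independent replicates, -0.711), from a median of 0.81 in the tenth of genes with the lowest GC content to -1.12 in the tenth with the highest. Values with a correction for GC content are therefore given beside the direct ones, and after that correction the medians of these groups lay between 0.02 and 0.12.

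The tissue label was compared with short marker lists, and summed levels are in normalized counts. Odontoblast markers, Col1a1 among them, summed to 1003839 to 1209263 in WT and 296782 to 372745 in Mmp13-/-. By gene, Dspp, Phex and Ibsp of that list were higher in Mmp13-/-, Col1a1 and Nes were lower and Dmp1 did not pass, and Col1a1 makes up most of the sum. Skeletal muscle markers summed to 1118145 to 1326835 in WT and 203547 to 492060 in Mmp13-/-. No marker of any list was at 0 in all 6 samples. Fibroblast markers summed to 390672 to 621076 in WT and 175964 to 241595 in Mmp13-/-, but most of that sum is Col3a1, and of the 6 genes Col3a1 and Thy1 were lower, Lum, Dcn and Pdgfra were higher and Prrx1 did not pass. Chondrocyte markers summed to 21194 to 40399 and 10392 to 12824, with 2 genes lower and 1 higher of 5 tested. Leukocyte markers, of which 5 of 6 were found, summed to 1883 to 2052 in WT and 3316 to 5322 in Mmp13-/-, whereas the summed endothelial, mural, Schwann and epithelial lists overlapped. In bulk tissue, fewer cells of a type and less RNA per cell cannot be told apart, and the part of these lists in the differences of the ADAMTS genes was not tested.

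Each of the 10 genes was expressed in every sample, with 84.6 estimated counts as the lowest value, and all passed the filter on low counts. Levels are those of the whole sample, in which skeletal muscle markers were also found. Compared per kilobase of merged exons, Adamts2 had the highest level in WT samples at 770 ± 97.2 (SD, n = 3), followed by Adamts1 at 438 ± 73.4, Adamts9 at 364 ± 8.64 and Adamts4 at 356 ± 53.7. Adamts2 did not overlap the next gene, whereas Adamts1, Adamts9 and Adamts4 overlapped their neighbours in this order. A second tier held Adamts3 at 125 ± 13.7, Adamts14 at 99.2 ± 16.1 and Adamts5 at 85.1 ± 2.39, each overlapping the next. The lowest levels were those of Adamts12 at 43.2 ± 5.88, Adamts8 at 37.0 ± 8.42 and Adamts15 at 30.5 ± 5.23, which also overlapped in turn. The order and overlaps given here are those for merged exons, and they depend on the length used. Per kilobase of the longest coding transcript, Adamts9 came second at 684 ± 16.2, above Adamts1 at 475 ± 79.7. By that length Adamts3 was at 172 ± 18.9 and Adamts14 at 99.3 ± 16.1. Adamts15 at 53.3 ± 9.14 then came above Adamts8 at 47.0 ± 10.7.

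**Figure D1:**
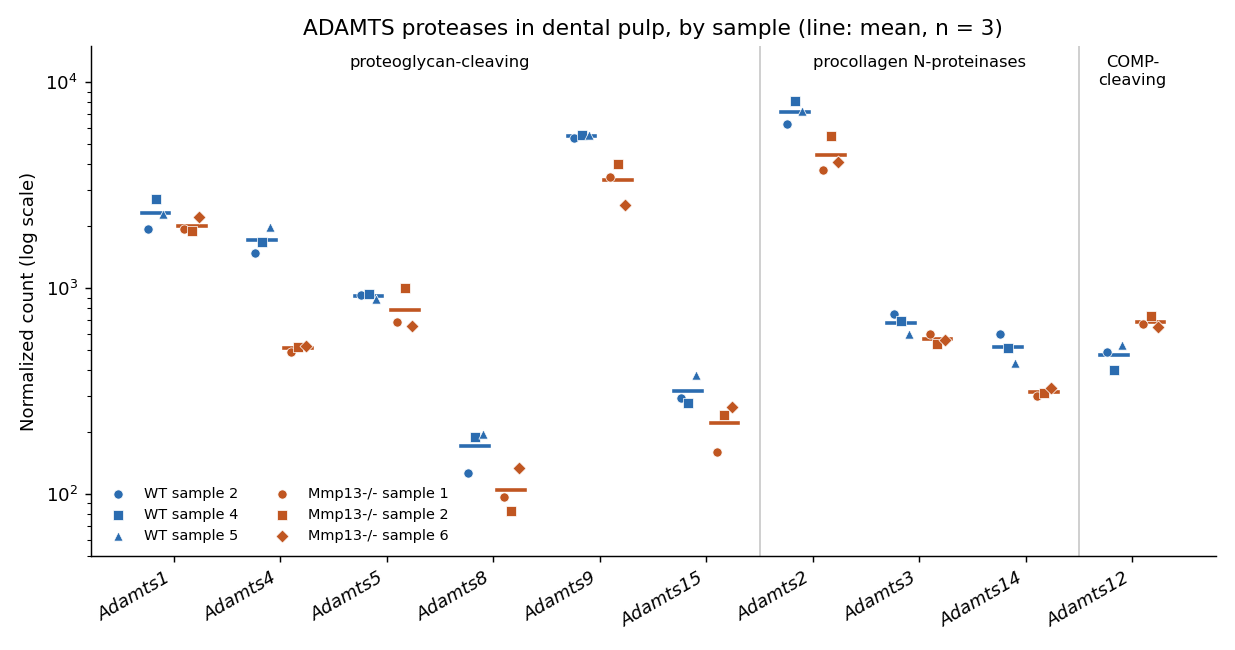
Normalized counts of the 10 ADAMTS genes in each sample on a log axis, in blue for WT and orange for Mmp13-/- with a symbol for each sample and a line at the mean of 3 samples. Adamts4 shows the widest gap between genotypes, at 1475 to 1988 in WT against 489.2 to 524.5 in Mmp13-/-, and Adamts12 alone lies higher in every Mmp13-/- sample than in any WT sample.

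Loss of MMP13 was accompanied by lower Adamts4 and, to a lesser degree, by lower Adamts9 and higher Adamts12, and these 3 differences kept their direction and passed the test also after the GC correction, although Adamts9 and Adamts12 did not pass under every other alternative. A difference passed when its adjusted p in edgeR was under 0.05, and it was called when it also exceeded 2-fold. Adamts4 was the single member called (1 of 10, lower in Mmp13-/-), where 30.1% of the 24534 genes tested were called, 9.68% as lower and 20.4% as higher. At any fold 6 of 10 members passed, beside 51.6% of all genes. Of these, 5 were lower, Adamts2, Adamts4, Adamts8, Adamts9 and Adamts14, against 24.3% of all genes, and 1 was higher, Adamts12, against 27.3%. The genotypes did not overlap in 6 members, 5 of them lower in Mmp13-/-, whereas they did not overlap in 60.9% of all genes, with 29.1% lower. The 10 members had a median of -0.61 on the log2 scale, beside 0.10 over all genes tested. Without Mmp13-/- sample 6, 7 members passed, which were these 6 and Adamts15. Without WT sample 4, 3 members passed, Adamts4, Adamts9 and Adamts14, and with total counts in place of scaling factors 1 passed, Adamts4.

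With the GC correction, Adamts4, Adamts5 and Adamts9 passed as lower (9.51% of all genes) and Adamts12 as higher (26.8%), which makes 4 of 10 members beside 36.3% of all genes. None of the 10 was then over 2-fold, beside 20.3% of all genes. The median of the members moved from -0.61 to 0.20, while that over all genes tested moved from 0.10 to 0.33. The signs of Adamts1, Adamts2, Adamts3, Adamts8, Adamts14 and Adamts15 turned from negative to positive, and none of these 6 passed the test after the correction.

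**Figure D2:**
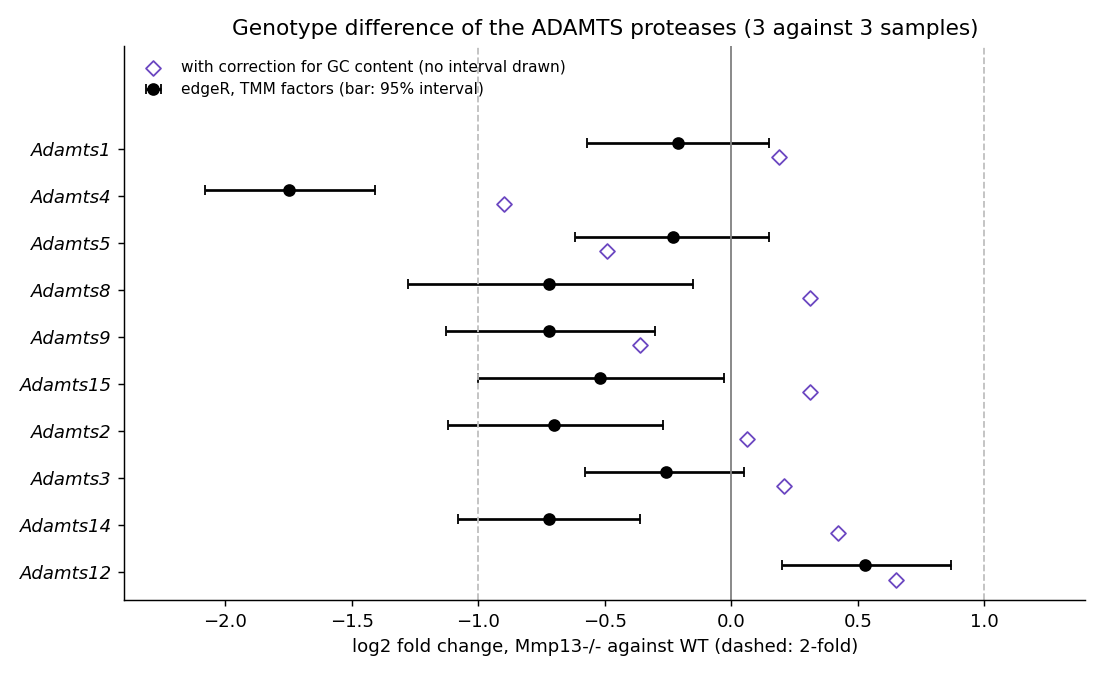
Log2 fold change of each ADAMTS gene in Mmp13-/- against WT, with 95% intervals for the direct fit (black) and the value after GC correction (open diamonds), dashed lines at 2-fold. Adamts4, Adamts5 and Adamts9 stay below 0 and Adamts12 above 0 in both, whereas the other 6 move from below to above 0.

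Among the proteoglycan-cleaving members, the aggrecanase Adamts4 differed most. Adamts4 (ENSMUSG00000006403, chr1:171250421-171260637, + strand, zinc site in exons 3 and 4 within chr1:171253210-171253915) had normalized counts of 1475, 1679 and 1988 in WT samples 2, 4 and 5 against 489.2, 520.5 and 524.5 in Mmp13-/- samples 1, 2 and 6. The genotypes were far apart, and the Mmp13-/- samples lay close together. The level was 3.35-fold lower in Mmp13-/-, a log2 fold change of -1.75 ± 0.15 (SE; 95% interval -2.08 to -1.41) with an adjusted p of 5.68e-05. It stayed at -1.76 without Mmp13-/- sample 6, and with the GC correction it came to -0.90 (adjusted p = 0.00228).

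Adamts5, the other principal aggrecanase, did not pass the direct test. Adamts5 (ENSMUSG00000022894, chr16:85856173-85901828, - strand, zinc site in exons 2 and 3 within chr16:85878015-85887826) had normalized counts of 928.6, 937.5 and 889.1 in WT against 684.9, 997.0 and 657.6 in Mmp13-/-. Mmp13-/- sample 2 lay above every WT sample and the other 2 lay below them. The log2 fold change was -0.23 ± 0.17 (95% interval -0.62 to 0.15, adjusted p = 0.288), and it was -0.51 (adjusted p = 0.0312) without Mmp13-/- sample 2 and -0.13 (adjusted p = 0.536) without sample 6. Adamts5 has the lowest GC content of the members, 43.7%, and with the GC correction its value was -0.49 (adjusted p = 0.0335).

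Adamts1 (ENSMUSG00000022893, chr16:85793827-85803113, - strand, zinc site in exons 3 and 4 within chr16:85799191-85799545), a versican- and aggrecan-cleaving protease, lies 53.1 kb from Adamts5. Its normalized counts were 1941, 2719 and 2303 in WT against 1931, 1885 and 2210 in Mmp13-/-, and the genotypes overlapped. The log2 fold change was -0.21 ± 0.16 (95% interval -0.57 to 0.15, adjusted p = 0.305), 0.01 with upper-quartile factors and 0.19 with the GC correction, so no direction can be given. Differences of up to 0.57 on the log2 scale remained within the interval.

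Adamts9 (ENSMUSG00000030022, chr6:92772699-92943492, - strand, zinc site in exons 8 and 9 within chr6:92905285-92908493), a versican-cleaving protease, was lower in Mmp13-/-. Normalized counts were 5332, 5549 and 5566 in WT against 3450, 4012 and 2540 in Mmp13-/-. WT samples were nearly equal, Mmp13-/- samples spread more widely, and the lowest value was that of sample 6. The level was 1.64-fold lower (log2 fold change -0.72 ± 0.19, adjusted p = 0.00929), -0.55 without sample 6 (adjusted p = 0.00457) and -0.36 with the GC correction (adjusted p = 0.0307), but with total counts in place of scaling factors it did not pass. Its exons overlap those of A730049H05Rik by 1381 bases and Gm15737 by 424 bases, both on the opposite strand, which were counted at no more than 167 and 310 in any sample. Whether counting used the strand is not given in the sources used here.

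Adamts8 and Adamts15, whose products also cleave aggrecan or versican, are neighbours 20.1 kb apart on chromosome 9, the chromosome that carries Mmp13 at a distance of 23.6 to 23.7 Mb. Adamts8 (ENSMUSG00000031994, chr9:30942562-30963838, + strand, zinc site in exons 3 and 4 within chr9:30952721-30953378) had normalized counts of 126.0, 189.9 and 196.1 in WT against 96.22, 82.46 and 134.0 in Mmp13-/-. WT sample 2 lay below Mmp13-/- sample 6, so the genotypes overlapped. The log2 fold change was -0.72 ± 0.25 (adjusted p = 0.0367), and the sign turned with the GC correction (0.31, adjusted p = 0.417). The pass was lost when any of WT samples 4 and 5 and Mmp13-/- samples 1 and 2 was left out (-0.73 to -0.63, adjusted p 0.0624 to 0.0942). It was also lost with upper-quartile factors (adjusted p = 0.187) and with total counts (adjusted p = 0.0843). Nor did Adamts8 pass with at least 10 counts in every sample (adjusted p = 0.0771) or in limma on the deposited values (adjusted p = 0.0537).

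Adamts15 (ENSMUSG00000033453, chr9:30899155-30922452, - strand, zinc site in exons 2 and 3 within chr9:30911255-30911690) had normalized counts of 293.0, 276.5 and 377.5 in WT against 159.5, 241.3 and 264.4 in Mmp13-/-. Every WT sample lay above every Mmp13-/- sample, but by a narrow margin. The log2 fold change of -0.52 ± 0.22 did not pass (adjusted p = 0.0712), it passed without Mmp13-/- sample 6 (-0.65, adjusted p = 0.0409) or without WT sample 2 (-0.64, adjusted p = 0.0492), and the sign turned with the GC correction (0.31, adjusted p = 0.366). For these 2 genes of low count, the rate of receptor-gene counts per kilobase in Mmp13-/- sample 6 would amount to 26.1% of the Adamts8 counts and 29.7% of the Adamts15 counts, the highest shares among the members. With that rate subtracted in every sample the log2 fold changes were -0.79 (adjusted p = 0.0236) for Adamts8 and -0.59 (adjusted p = 0.04) for Adamts15, which then passed, as it did with no filter on low counts (-0.63, adjusted p = 0.0127).

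The 3 procollagen N-proteinases all had negative direct values, and none kept its sign after the GC correction. Adamts2 (ENSMUSG00000036545, chr11:50602084-50807573, + strand, zinc site in exons 7 and 8 within chr11:50775403-50776134), the main N-proteinase of type I procollagen, had normalized counts of 6257, 8070 and 7231 in WT against 3766, 5462 and 4077 in Mmp13-/-. The genotypes did not overlap, although Mmp13-/- sample 2 came near WT sample 2. Adamts2 was 1.62-fold lower (log2 fold change -0.70 ± 0.19, 95% interval -1.12 to -0.27, adjusted p = 0.0127), just missed the threshold without WT sample 4 (-0.65, adjusted p = 0.0502), and was at 0.06 with the GC correction (adjusted p = 0.766).

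Adamts14 (ENSMUSG00000059901, chr10:61197112-61273438, - strand, zinc site in exons 7 and 8 within chr10:61225465-61227123), a close relative of Adamts2, had normalized counts of 599.6, 514.0 and 432.7 in WT against 300.3, 309.0 and 328.9 in Mmp13-/-. The genotypes were well apart, and Mmp13-/- samples were nearly equal. The level was 1.65-fold lower (log2 fold change -0.72 ± 0.16, adjusted p = 0.00414) and passed whichever sample was left out (-0.91 to -0.67). Adamts14 has the highest GC content of the members, 59.5%, genes of its GC group were at a median of -1.12, and with the GC correction its value was 0.42 (adjusted p = 0.0957).

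Adamts3 (ENSMUSG00000043635, chr5:89677087-89883334, - strand, zinc site in exons 8 and 9 within chr5:89707433-89707818), which processes procollagen and the lymphatic growth factor VEGFC, had normalized counts of 746.5, 691.5 and 599.1 in WT against 599.4, 534.0 and 562.0 in Mmp13-/-. The genotypes met at the lowest WT sample. The log2 fold change of -0.26 ± 0.14 (95% interval -0.58 to 0.05) did not pass (adjusted p = 0.142), and it was 0.21 with the GC correction (adjusted p = 0.285).

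Adamts12 (ENSMUSG00000047497, chr15:11064790-11349231, + strand, zinc site in exons 7 and 8 within chr15:11241529-11255564), which with Adamts7 cleaves COMP, was the single member with a positive direct value. Normalized counts were 486.9, 401.0 and 526.7 in WT against 670.2, 728.5 and 650.2 in Mmp13-/-. All Mmp13-/- samples lay above all WT samples. The level was 1.45-fold higher (log2 fold change 0.53 ± 0.15, 95% interval 0.20 to 0.87, adjusted p = 0.013) and 0.65 on the log2 scale with the GC correction (adjusted p = 0.00824). The pass was lost when WT sample 2 or 4 or Mmp13-/- sample 1 or 2 was left out (0.39 to 0.49, adjusted p 0.0567 to 0.0874), and it was kept without Mmp13-/- sample 6 (0.57, adjusted p = 0.012). It was also lost in limma on the deposited values (0.48, adjusted p = 0.0619), with no filter (0.43, adjusted p = 0.0719) and with total counts (0.65, adjusted p = 0.084), so the direction held throughout but the pass did not.

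**Figure D3:**
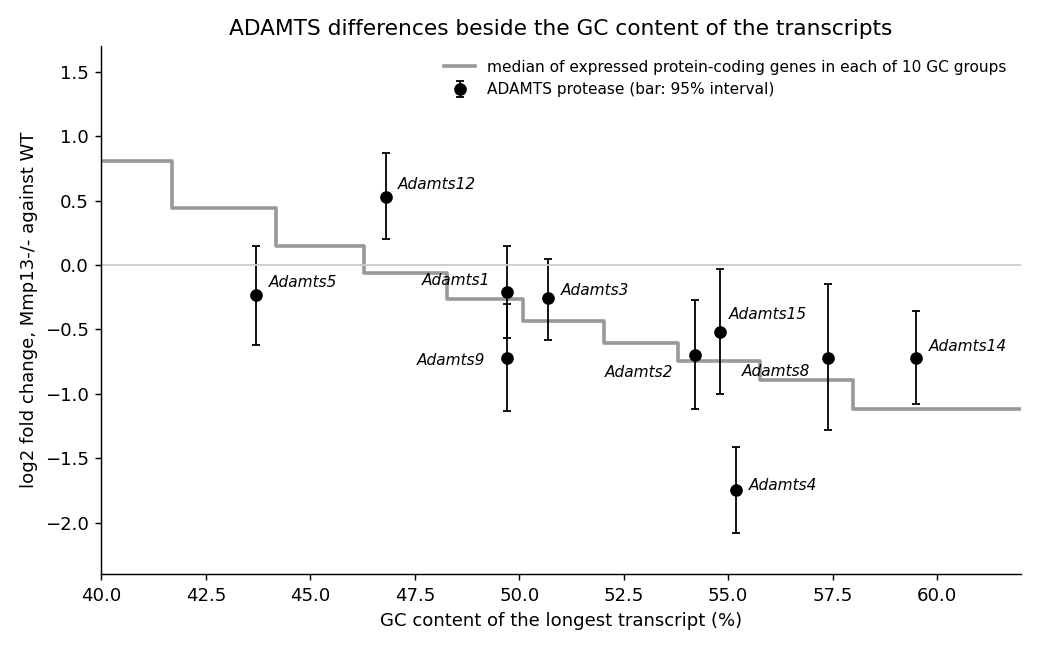
Log2 fold change of each ADAMTS gene with its 95% interval against the GC content of its longest transcript, with the grey line at the median of expressed protein-coding genes in each of 10 GC groups. Adamts2, Adamts8 and Adamts15 lie near the grey line, Adamts4 lies at -1.0 from it and Adamts12 at 0.60.

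Set beside the median of genes with like GC content, the members spread in both directions. On the log2 scale Adamts4 lay at -1.0 from that median, Adamts5 at -0.68 and Adamts9 at -0.45, all 3 of them proteoglycan-cleaving members. Adamts12 lay 0.60 above it and Adamts14 0.40 above it. The other 5 members were within 0.23 of the median of their GC group. Among these, the proteoglycan-cleaving Adamts1, Adamts8 and Adamts15 lay 0.05, 0.18 and 0.23 above it, so the members of that role were divided.

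The make-up of the ADAMTS transcript pool can be followed sample by sample. Summed per kilobase of exon, the 10 genes reached 2140, 2510 and 2400 in WT samples against 1430, 1670 and 1470 in Mmp13-/- samples. Adamts4 supplied 14.4%, 13.9% and 17.3% of the pool in WT but 7.12%, 6.47% and 7.40% in Mmp13-/-, whereas Adamts12 supplied 2.09%, 1.46% and 2.01% and then 4.30%, 3.99% and 4.04%. Adamts1 supplied 18.6% ± 1.68 in WT and 25.0% ± 3.55 in Mmp13-/-, and Adamts2 supplied 32.7% ± 1.55 and 31.0% ± 3.54. In the order of levels by merged exons, Adamts4 overlapped Adamts1 and Adamts9 in WT. In Mmp13-/- Adamts4 stood at 106 ± 4.03 per kilobase and overlapped Adamts3 at 104 ± 6.04. These overlaps depend on the length used. Per kilobase of the longest coding transcript, Adamts4 was at 390 ± 58.8 and Adamts9 at 684 ± 16.2 in WT. By that length Adamts4 was at 117 ± 4.41 and Adamts3 at 144 ± 8.34 in Mmp13-/-. These sums and shares are descriptions with no test, since the genes were chosen with results known. They carry no GC correction, so the smaller pool in Mmp13-/- and the changes in share hold for uncorrected counts only. That correction moved the log2 fold change from -0.70 to 0.06 for Adamts2, from -0.21 to 0.19 for Adamts1 and from -1.75 to -0.90 for Adamts4.

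**Figure D4:**
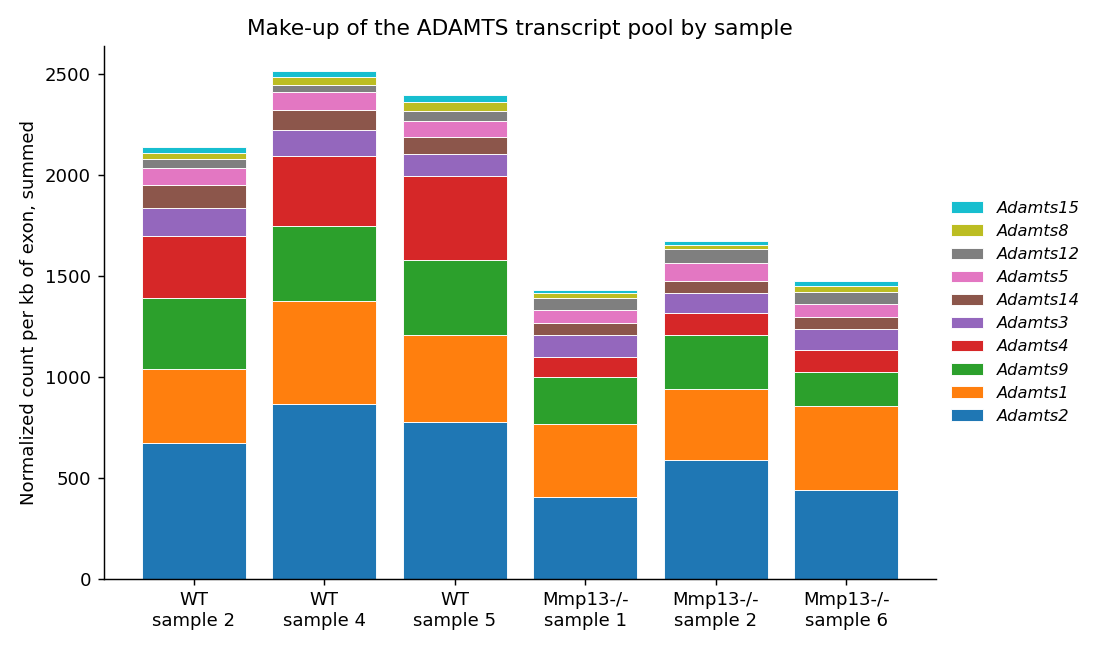
Stacked bars of the normalized counts per kilobase of exon of the 10 ADAMTS genes in each sample, from 0, without GC correction. The bars are 2140 to 2510 high in WT and 1430 to 1670 in Mmp13-/-, and the red Adamts4 segment shrinks from 13.9% to 17.3% of the bar in WT to 6.47% to 7.40% in Mmp13-/-.

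A further 11 within-sample ratios per kilobase, chosen after the levels had been seen, were computed. The genotypes did not overlap in 7 of them, beside 60.9% of all single genes tested, and several ratios share a gene. With 3 against 3 samples an exact permutation test, two-sided, cannot give a p below 0.1, which becomes 0.157 after adjustment over the 11. The ratio of Adamts4 to Adamts5, the 2 aggrecanases, was 3.56, 4.02 and 5.02 in WT against 1.60, 1.17 and 1.79 in Mmp13-/- (exact permutation p = 0.1). The ratios carry no GC correction, which brings the log2 fold changes of these 2 genes closer together, from -1.75 and -0.23 to -0.90 and -0.49. The ratios of the paired neighbours overlapped, Adamts5 to Adamts1 with p = 0.9 and Adamts8 to Adamts15 with p = 0.6 in the same exact test.

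The lists of substrates and regulators are described by their counts and medians. Direct values are to be read beside 24.3% of all genes lower, 27.3% higher and a median of 0.10. Values with the GC correction are to be read beside 9.51% lower, 26.8% higher and a median of 0.33. Of 8 hyalectans and their link proteins, which form the hyaluronan-bound proteoglycan matrix, 3 were higher in Mmp13-/- and none lower by the direct test, with a median log2 fold change of 1.13, and 4 were higher and none lower with the GC correction. Vcan, which encodes versican, had normalized counts of 1782, 916.1 and 539.4 in WT against 4350, 4130 and 2993 in Mmp13-/-, a log2 fold change of 1.83 ± 0.36 (adjusted p = 0.00247). Hapln1, the link protein that ties versican and aggrecan to hyaluronan, rose by 1.97 ± 0.34 on the log2 scale. Both kept this direction and passed with the GC correction (1.58 and 1.30). Acan, which encodes aggrecan, was at -0.24 ± 0.18 (adjusted p = 0.294), with a turned sign after the GC correction (0.57, adjusted p = 0.0521). Ncan, for neurocan, rose by 3.13 from a mean of 5.718 normalized counts, and the receptor-gene rate would supply up to 53.6% of its counts in a sample. Hapln4 passed with the GC correction (2.34, adjusted p = 0.0278) but not directly (adjusted p = 0.0917). Its WT mean was 15.83 normalized counts, the genotypes overlapped, and that rate would supply up to 45.3% of its counts. Ncan and Hapln4 are both among the 4 that were higher with the GC correction.

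All 6 fibrillar procollagen genes were lower in Mmp13-/- by more than 2-fold, with a median log2 fold change of -1.43. Col1a1 fell from 1089141 ± 105000 to 243189 ± 31900 normalized counts (log2 fold change -2.16 ± 0.34, adjusted p = 0.000668) and Col3a1 from 530208 ± 130000 to 177579 ± 29800 (-1.58 ± 0.33, adjusted p = 0.00325). Col5a1, of type V collagen, which sets fibril diameter, fell by 1.66. With the GC correction all 6 kept a negative sign and 4 passed, with Col1a1 at -1.05 and Col3a1 at -0.95. The ratio of Adamts2 to Col1a1 per kilobase was 0.00384, 0.00491 and 0.00525 in WT against 0.0122, 0.0138 and 0.0122 in Mmp13-/-, without GC correction. The skeletal muscle markers, of which 5 of 6 were lower in Mmp13-/-, moved in the same direction as the procollagens, and their part was not tested.

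Of 5 genes that remove or help remove the carboxy-terminal propeptide, 2 were lower and none higher, and none passed with the GC correction. Bmp1, the main C-proteinase, was at -1.30 ± 0.17 (adjusted p = 0.000271) and its enhancer Pcolce at -0.59 ± 0.15 (adjusted p = 0.00922), and with the GC correction Bmp1 did not pass (-0.34) and Pcolce turned positive (0.21). Tll2, a relative of Bmp1, had few counts and did not pass (0.86 ± 0.63).

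Among 9 genes that activate, inhibit, clear or work with ADAMTS proteases, 7 were lower and 1 was higher, whereas with the GC correction 2 were lower and 2 higher. Pcsk6 passed in opposite directions, as lower by the direct test (-0.45, adjusted p = 0.023) and as higher with the GC correction (0.45, adjusted p = 0.0329). The one that rose in both was Timp3, whose product inhibits the aggrecanases, with normalized counts of 7030, 9765 and 7402 in WT against 12585, 18871 and 18628 in Mmp13-/- (log2 fold change 1.05 ± 0.23, adjusted p = 0.00358, and 1.18 with the GC correction). Furin, the convertase that trims ADAMTS precursors, fell by 1.79 ± 0.15 (adjusted p = 5.21e-05) and was at -0.89 with the GC correction (adjusted p = 0.000762). Lrp1, the receptor that clears ADAMTS4 and ADAMTS5 from the matrix, was at -1.03 ± 0.21 and at 0.01 with the GC correction. Comp, the substrate of Adamts12, was at -1.35 ± 0.20 (adjusted p = 0.000502) and at -0.16 with the GC correction, which did not pass.

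The 9 remaining ADAMTS proteases were divided, with 4 lower and 3 higher and a median of -0.15, and with the GC correction 2 were lower and 3 higher. Adamts6 rose from 387.7 ± 141 to 998.7 ± 172 normalized counts (log2 fold change 1.37 ± 0.24, adjusted p = 0.00132) and kept this with the GC correction (1.06). Adamts17 fell by 1.35 ± 0.16 (adjusted p = 0.00018) and was at -0.63 after the correction (adjusted p = 0.00177). Adamts7, the partner of Adamts12 in cleaving COMP, was at -0.74 ± 0.21 (adjusted p = 0.0144) and Adamts10, which binds fibrillin, at -1.03 ± 0.17 (adjusted p = 0.00107), and both turned positive with the GC correction (0.33 and 0.04). Adamts13, which cuts von Willebrand factor, was near the detection limit at 10.18 ± 5.92 and 42.38 ± 24.3 normalized counts (log2 fold change 2.03 ± 0.60), passed at 1.54 with the receptor-gene rate subtracted, and did not pass without WT sample 4.

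Of 7 genes of ADAMTS-like proteins, which lack a protease domain and bind the matrix, papilin among them, 3 were lower and none higher, and 2 were lower with the GC correction. Adamtsl5 was at -1.67 ± 0.15 and Adamtsl4, which binds fibrillin, at -1.60 ± 0.15. With the GC correction Adamtsl5 still passed (-0.63, adjusted p = 0.00194) and Adamtsl4 did not (-0.41, adjusted p = 0.0714). Thsd4 did not pass in either (-0.36 and 0.27). Papln was spread in WT, at 9418, 2458 and 831.2 normalized counts, and its log2 fold change of -0.28 became 1.01 without WT sample 2.

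**Figure D5:**
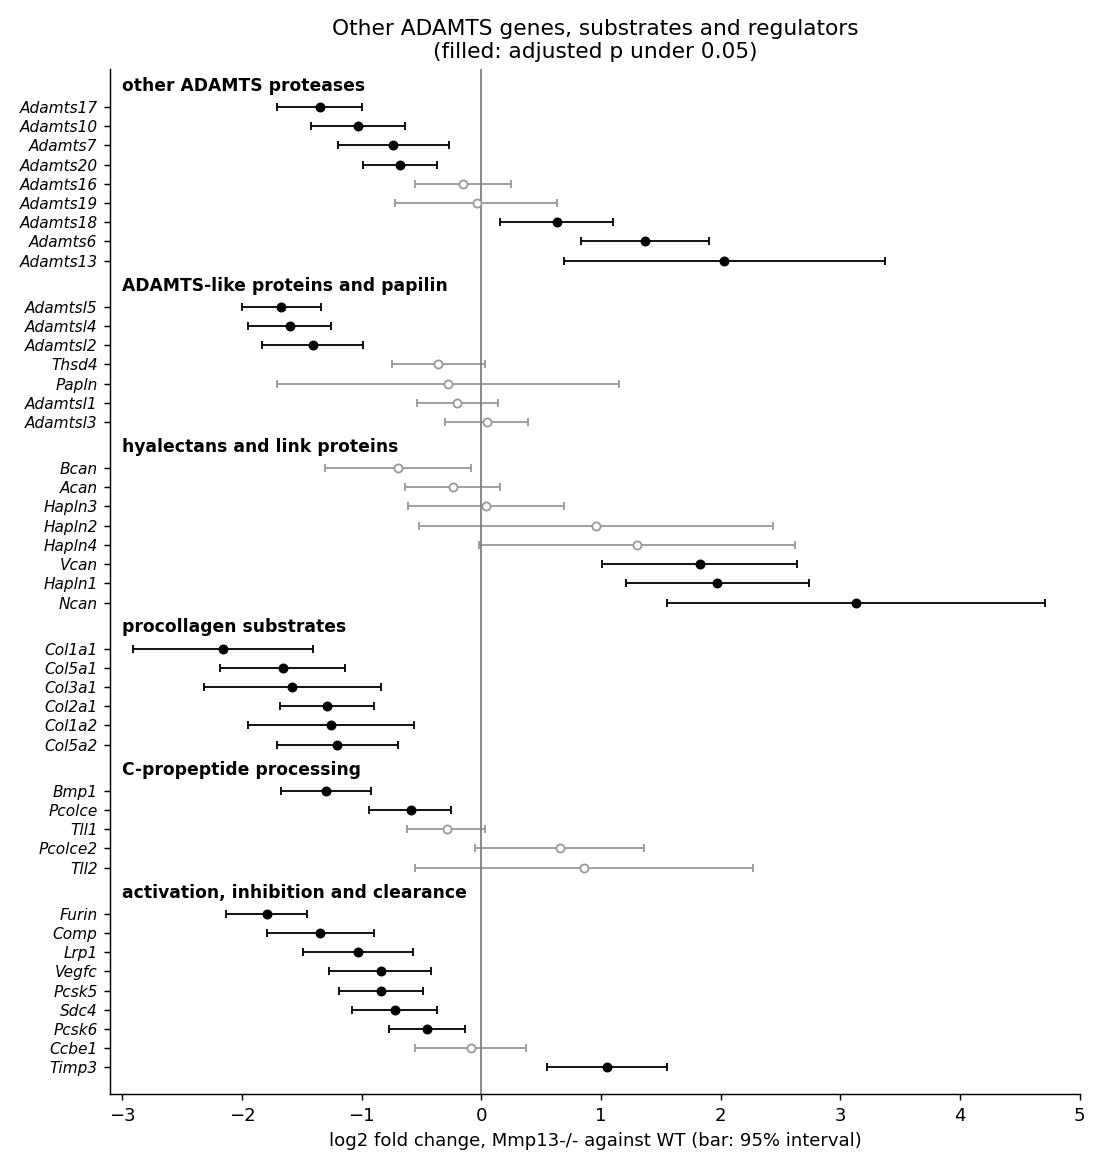
Log2 fold change with its 95% interval, by the direct fit, for the other ADAMTS proteases, the ADAMTS-like proteins, the substrates and the regulators, filled where the adjusted p was under 0.05. All 6 procollagen genes lie below -1, Vcan and Hapln1 lie at 1.83 and 1.97, and Timp3 at 1.05 is the single filled point above 0 among the regulators; after the GC correction Adamts7, Adamts10, Thsd4, Papln, Acan, Pcolce and Lrp1 are among those that turn sign.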

How the data were processed

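RNA of dental pulp (3 samples a genotype, from mice 3 months old) was read in pairs on an Illumina instrument. The authors made estimated counts per gene in Strand NGS, and the submitters' notes name mm10 and DESeq; the annotation, the aligner settings and strandedness are not given in the sources used here. The deposited log2 values are the authors' normalized counts centred on each gene's median, and they were recomputed from the counts to within 2.35e-06 as a check. The genes of interest and all lists were chosen with earlier results of these data known.

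Estimated counts were rounded and tested with edgeR 4.0.16 (quasi-likelihood test, TMM factors, its filter on low counts, Benjamini-Hochberg adjustment over 24534 genes, R 4.3.3), without covariates. Normalized counts are the counts over each TMM-adjusted library total, brought to the mean library, and errors are SD over 3 samples or the SE of the fit. Between samples of one genotype, chi-square per degree of freedom was 24.1 to 411, where counting error alone gives about 1, so no samples were duplicates and depth was not the main error. Positions, lengths and GC content come from GENCODE M21 of GRCm38, matched by identifier for 99.8% of genes. Named genes are all members, Mmp13, and from each list the 2 most abundant and the 2 with the largest change, with Timp3, Vcan, Acan, Comp, Adamts7, Col1a1 and Col3a1. Hapln4 was added for its low counts, and Pcsk6 because it passed in opposite directions with and without the GC correction.

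Alternatives were median-of-ratios, upper-quartile or no factors, 2 other filters, DESeq2 1.42.0, limma 3.58.1 on the deposited log2 values, leaving out each sample, adjusted p under 0.01, a loess correction for GC content (span 0.4), subtraction of the count rate per kilobase of 1425 receptor genes, and both together. The scripts were tested on simulated data. One item is not reported here.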

Additional observations from a re-analysis of the deposited data

How the results depend on the processing

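No paired analysis was made, because no pairing between samples of the 2 genotypes is recorded and the replicate numbers are not said to mark pairs. Of 170 values for the 10 members under 17 alternatives, 128 kept their sign and side of the threshold, 22 lost the pass, 7 gained it and 13 changed sign; Adamts4 kept both in all 17. Called genes numbered 7381, and 4666 with at least 10 counts in every sample, 14325 with no filter, 11714 in DESeq2 and 3675 with GC correction and background subtraction. The share of called genes that were higher was 67.8%, and 81.4% with upper-quartile factors, 77.2% with total counts, 88.2% with GC correction, 78.6% with no filter, 78% in DESeq2 and 78.3% with both corrections; the all-gene median was 0.104 on the log2 scale, and 0.315, 0.215 and 0.331 under the first 3 of these. Members called over 2-fold fell from 1 to 0 with GC correction, alone or with background subtraction. Members passing at any fold numbered 6, and 1 with total counts, 3 at adjusted p under 0.01, and 3 to 7 when 1 sample was left out (3 without WT sample 4, 7 without Mmp13-/- sample 6). The causes were not tested.

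Signs turned with GC correction, and with both corrections, for Adamts1 (0.19 and 0.21, and 0.01 with upper-quartile factors), Adamts2 (0.06 and 0.08), Adamts3 (0.21 and 0.18), Adamts8 (0.31 and 0.08), Adamts14 (0.42 and 0.36), Adamts15 (0.31 and 0.07), Adamts7 (0.33 and 0.14), Adamts10 (0.04 and 0.04), Thsd4 (0.27 and 0.28), Papln (0.86 and 0.87), Acan (0.57 and 0.50), Pcolce (0.21 and 0.23) and Lrp1 (0.01 and 0.03). Papln was also positive in limma (0.30) and ran from -0.84 to 1.01 when 1 sample was left out, and Tll2 turned to -0.43 with background subtraction. Pcsk6 turned from -0.45 to 0.45 with GC correction. The length used for levels was added after seeing the data. With 3 samples a genotype the SE of the members was 0.14 to 0.25 on the log2 scale, which limits what could be told apart.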
